A study of Mus musculus with 6 samples.

Results

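The mouse CLCA genes *Clca1*, *Clca4a* and *Clca4b* were taken from the count table of villus epithelium by matching Ensembl identifiers to current gene symbols, which gave 3 genes of 20409 features. They were selected on the fall of *Clca4a* in the double mutant, so the values of *Clca4a* are given as a description, without a test. The other members of the family, *Clca2*, *Clca3a1*, *Clca3a2* and *Clca3b*, are shown beside them, which makes 7 genes. All 7 passed the filter on low counts, *Clca2* through its level in the wild-type group alone. The annotation of mm9 uses an older numbering, in which *Clca1* is Clca3, *Clca4a* is Clca6, *Clca4b* is AI747448, *Clca2* is Clca5, *Clca3a1* is Clca1, *Clca3a2* is Clca2 and *Clca3b* is Clca4.

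CLCA proteins take their name from chloride channels, calcium-activated, but they are not channels themselves. They are secreted or membrane-attached proteins that cut themselves with a built-in metalloprotease domain, and human CLCA1 raises the current of the true channel TMEM16A, encoded by *Ano1*, by holding it at the cell surface. *Clca1* is a product of goblet cells and one of the main proteins of intestinal mucus, where it acts on the mucin encoded by *Muc2*. *Clca4a* and *Clca4b* are mouse counterparts of human CLCA4, a gene of absorptive epithelium that is often low in colorectal tumors.

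RNA was sequenced from duodenal villus epithelium of 3 double mutant and 3 wild-type mice, with 1 library per mouse and with 1 male (mouse 1) and 2 females (mice 2 and 3) in each group. Double mutant mice carried Smad4 fl/fl, Ctnnb exon3 fl/wt and Villin-CreERT2, so that tamoxifen removes Smad4 and stabilizes β-catenin throughout the intestinal epithelium, in crypts as well as villi. They received tamoxifen at 0.05 g/kg on 4 consecutive days and their villi were examined 7 days after induction. Wild-type mice were uninjected littermates on the same C57BL6-enriched background, so tamoxifen itself and the mutation cannot be told apart. The paper states that replicates were matched for age and sex between the groups, but the ages were not given in the sources used here. The counted reads ranged from 19678507 to 26337318 per mouse, and 3 counts, the smallest level treated as detectable, equalled 0.125 to 0.163 CPM (counts scaled to the library total after TMM normalization, as for all CPM unless stated). This floor covers counting error only. *Smad4* was at 120, 180 and 145 CPM in wild-type mice 1, 2 and 3 and at 26.1, 36.8 and 32.1 CPM in double mutant mice 1, 2 and 3.

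Wild-type mouse 1, the male of its group, stood apart from the other wild-type mice. Goblet cell genes took 0.0115% of its counts, against 1.07% and 1.09% in the other wild-type mice and 0.498 to 0.553% in the double mutant mice. Paneth cell genes took 0.000505% of its counts, against 0.0561% and 0.0974% in the other wild-type mice. Its log2 CPM over all genes correlated with that of the other wild-type mice at r = 0.957 and 0.958, while those correlated at 0.984. The results for the CLCA genes and the gene lists are therefore given with and without this mouse. Goblet and Paneth cell genes set it apart, so fits of these genes and of *Clca1* without it are a description. Absorptive cell genes took 4.73 to 5.30% of the counts in the wild-type mice, mouse 1 included, and 3.47 to 3.64% in the double mutant mice, so the labelled tissue was present in all of them. The fibroblast collagens *Col1a1*, *Col1a2* and *Col3a1* lay at or below 0.371 CPM in all 6 mice.

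The 7 genes lie side by side on the minus strand of chromosome 3 (mm9 chr3:144392641-144762068), in the order *Clca3a1*, *Clca3a2*, *Clca3b*, *Clca4b*, *Clca4a*, *Clca1* and *Clca2*. *Clca4b* spans chr3:144573885-144595493, *Clca4a* spans chr3:144615444-144638009 and *Clca1* spans chr3:144667501-144695740. *Clca4a* and *Clca4b* are near copies, with 2668 of 2778 coding bases identical (96.0%), as are *Clca3a1* and *Clca3a2* (97.1%). *Clca1* matched the other members at 56.9 to 63.5% of aligned coding bases. The longest run of coding sequence without a difference between *Clca4a* and *Clca4b* was 168 bases. Exact stretches as long as a 150-base read were shared at 19 of 2855 positions of the *Clca4a* transcript (0.665%), and no such stretch of *Clca1* was found in another member.

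**Figure D1:**
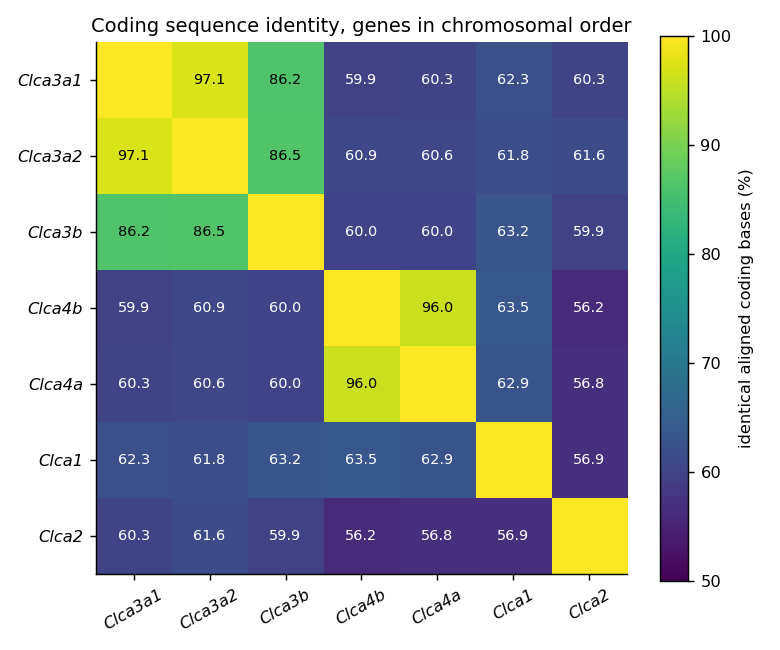
Heatmap of the share of aligned coding bases (percent, color scale from 50 to 100) that is identical between each pair of the 7 CLCA genes, in chromosomal order. *Clca4a* with *Clca4b* (96.0%) and *Clca3a1* with *Clca3a2* (97.1%) are the closest pairs, and *Clca1* stands at 56.9 to 63.5% from all others.

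The counts of *Clca4a* and *Clca4b* can be read separately only where their sequences differ, so the 75-base coding window within 1 exon of both genes that holds the most differences is shown. It lies in the last of 14 exons of each gene, in coding bases 2623 to 2697, at chr3:144615720-144615794 for *Clca4a* and chr3:144574155-144574229 for *Clca4b* (mm9, minus strand). The *Clca4a* window also lies within the span of Gm16233, a gene on the opposite strand (chr3:144610525-144617842). The capitals mark the 10 bases that differ.
Clca4a: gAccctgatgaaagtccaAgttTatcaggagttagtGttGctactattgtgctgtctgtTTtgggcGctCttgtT
Clca4b: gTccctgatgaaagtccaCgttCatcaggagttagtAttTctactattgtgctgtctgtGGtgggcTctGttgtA

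*Clca4a*, the gene the set was chosen by, was nearly lost in the double mutant villi. Its level was 240, 376 and 369 CPM in wild-type mice 1, 2 and 3 and 6.10, 3.71 and 3.61 CPM in double mutant mice 1, 2 and 3. The lowest wild-type mouse stood far above the highest double mutant mouse, and the mice of each group lay close together, with wild-type mouse 1 the lowest of its group. The mean was 329 ± 76.6 CPM (SD, n = 3) in the wild-type group and 4.47 ± 1.41 CPM (SD, n = 3) in the double mutant group. The log2 fold change was -6.20 ± 0.30 (SE), or 73.3-fold lower, and without wild-type mouse 1 it was -6.38. In bulk RNA, fewer cells that express a gene and less RNA per cell cannot be told apart.

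The remaining reads of *Clca4a* in the double mutant were few beside those of its near copy. *Clca4a* counts were 130, 80 and 76 in double mutant mice 1, 2 and 3, against 5765, 6911 and 7309 in wild-type mice 1, 2 and 3. Relative to *Clca4b* they amounted to 11.8%, 16.0% and 15.9% in the wild-type mice and 0.534%, 0.454% and 0.355% in the double mutant mice. Set beside this remainder, 0.665% of the read-length positions of *Clca4a* are shared with *Clca4b*. How reads matching both genes were counted is not given in the sources used here, and the part of such reads in the remainder was not tested. The antisense transcript Gm16233 overlaps the end of *Clca4a* on the plus strand and had 20, 48 and 58 counts in wild-type mice 1, 2 and 3 and 0, 1 and 0 in double mutant mice 1, 2 and 3. Since no strand setting was stated, reads of the 2 genes cannot be told apart where they overlap, and the remainder of Gm16233 lies outside *Clca4a*.

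*Clca4b* fell as well, but by less than its near copy, a difference that was not tested because *Clca4a* was selected on its fall. It was at 2028, 2347 and 2322 CPM in wild-type mice 1, 2 and 3 and at 1143, 818 and 1018 CPM in double mutant mice 1, 2 and 3. Every double mutant mouse was below every wild-type mouse, and wild-type mouse 1 lay close to the others. The means were 2232 ± 178 and 993 ± 164 CPM (SD, n = 3 each), a log2 fold change of -1.17 ± 0.15 (SE) or 2.25-fold lower, with an adjusted p of 0.000772 by edgeR's quasi-likelihood test with Benjamini-Hochberg adjustment over 13346 genes. Without wild-type mouse 1 the log2 fold change was -1.23 and the adjusted p was 0.000284.

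*Clca1*, the goblet cell member, was the most variable gene of the family between wild-type mice. Its level was 19.2, 4051 and 3810 CPM in wild-type mice 1, 2 and 3 and 448, 303 and 333 CPM in double mutant mice 1, 2 and 3. Wild-type mice 2 and 3 were far above all double mutant mice, but wild-type mouse 1 was below all of them, at a level that mice 2 and 3 exceeded 211-fold and 198-fold, so the groups overlapped. The log2 fold change was -2.86 ± 1.72 (SE) and did not pass the test (edgeR adjusted p = 0.266). Without wild-type mouse 1 it was -3.44 ± 0.18 (SE), or 10.9-fold lower, with an edgeR adjusted p of 1.74e-06, which rests on 2 wild-type mice. Since goblet cell genes set that mouse apart, this value is a description. The male of the double mutant group had the highest *Clca1* level of that group.

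**Figure D2:**
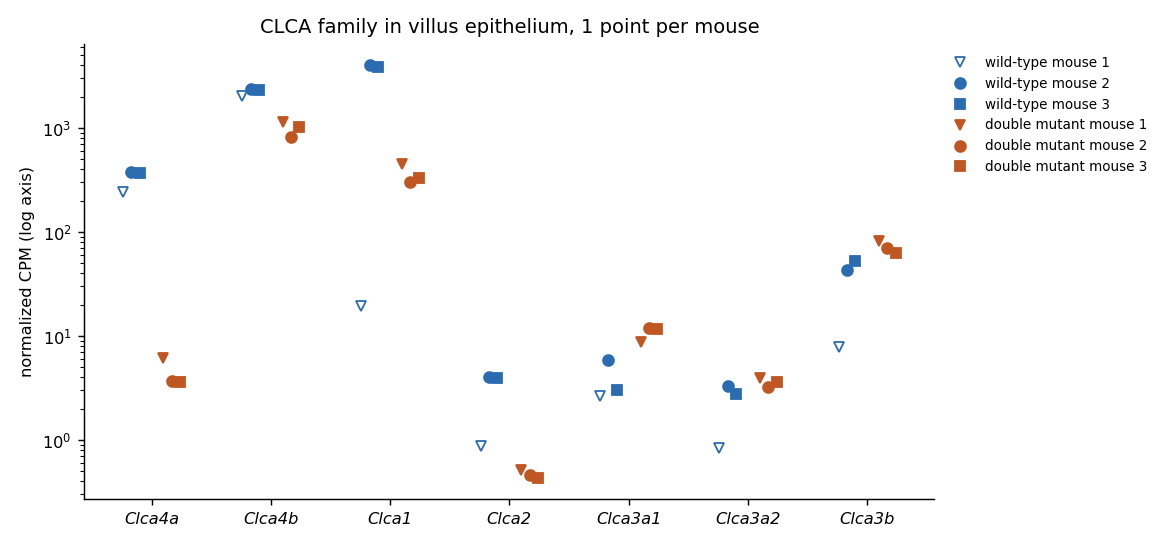
Normalized CPM (log axis) of the 7 CLCA genes in each of the 6 mice, with wild-type mice in blue and double mutant mice in orange and the open triangle for wild-type mouse 1. *Clca4a* drops from 240 to 376 CPM to 3.61 to 6.10 CPM, *Clca4b* stays within one order of magnitude, and *Clca1* is split within the wild-type group (19.2 against 3810 and 4051 CPM).

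Across the whole family, the log2 fold change was negative for the 4 genes from *Clca4b* to *Clca2* and positive for the 3 genes from *Clca3a1* to *Clca3b*. Of the 6 genes other than *Clca4a*, 2 were called lower and 1 higher at an adjusted p under 0.05, and 4 had groups that did not overlap. Over all 13346 genes tested, 36.8% were called, 17.0% lower and 19.7% higher, and 52.4% had groups without overlap. The genes called were *Clca4b* and *Clca2*, both lower, and *Clca3a1*, which was higher, and since *Clca2* passed the filter only through the group where it was high, these counts support nothing about the family. The median log2 fold change was -0.26 over these 6 genes and 0.02 over all genes. Without wild-type mouse 1, 3 of the 6 were called lower and 2 higher, against 17.1% and 20.2% of all genes. Scaling by library size alone shifted the median of all genes to 0.22 and the calls from 2273 lower and 2632 higher to 1425 lower and 3732 higher, and no CLCA gene changed direction.

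*Clca2*, best known from stratified epithelia, was low in all mice. It was at 0.875, 4.03 and 3.89 CPM in wild-type mice 1, 2 and 3 and at 0.516, 0.464 and 0.427 CPM in double mutant mice 1, 2 and 3. All double mutant mice were below all wild-type mice, although wild-type mouse 1 lay nearer to them than to its own group. The log2 fold change was -2.62 ± 0.59 (SE; edgeR adjusted p = 0.00965), and -3.06 without wild-type mouse 1. These values rest on 9 to 77 counts per mouse. All 3 wild-type libraries but 1 of 3 double mutant libraries reached the level of the filter (0.498 CPM by library total), so the gene was tested only because it was higher in the wild-type group, and its call is a description.

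*Clca3a1*, whose product is known from lymphatic endothelium, was the only family member called higher with all mice. Its level was 2.62, 5.82 and 3.03 CPM in wild-type mice 1, 2 and 3 and 8.69, 11.9 and 11.7 CPM in double mutant mice 1, 2 and 3, without overlap. The log2 fold change was 1.50 ± 0.31 (SE; edgeR adjusted p = 0.00679) and 1.28 without wild-type mouse 1. The lymphatic endothelial gene *Lyve1* was at 1.75 to 3.92 CPM over the wild-type mice and 3.37 to 4.08 CPM over the double mutant mice, with a log2 fold change of 0.48 that did not pass the test (edgeR adjusted p = 0.294), and *Kdr*, a gene of blood vessel endothelium, was at 0 in all but 1 mouse. The part of endothelial cells in the level of *Clca3a1* was not tested.

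*Clca3b* was at 7.79, 43.3 and 52.2 CPM in wild-type mice 1, 2 and 3 and at 81.1, 70.7 and 63.0 CPM in double mutant mice 1, 2 and 3. The groups did not overlap, but wild-type mouse 1 was far below the others and the log2 fold change of 1.06 ± 0.68 (SE) did not pass the test (edgeR adjusted p = 0.282). Without that mouse it was 0.58 ± 0.15 (SE) with an adjusted p of 0.0139. *Clca3a2* was at 0.833, 3.32 and 2.78 CPM in wild-type mice 1, 2 and 3 and at 3.94, 3.25 and 3.61 CPM in double mutant mice 1, 2 and 3. Its groups overlapped and it was not called with all mice (log2 fold change 0.65, edgeR adjusted p = 0.296) or without wild-type mouse 1 (0.24, edgeR adjusted p = 0.498). *Clca3a1* and *Clca3a2* shared 2.76% and 2.65% of their read-length positions, so the split of reads between them is uncertain.

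**Figure D3:**
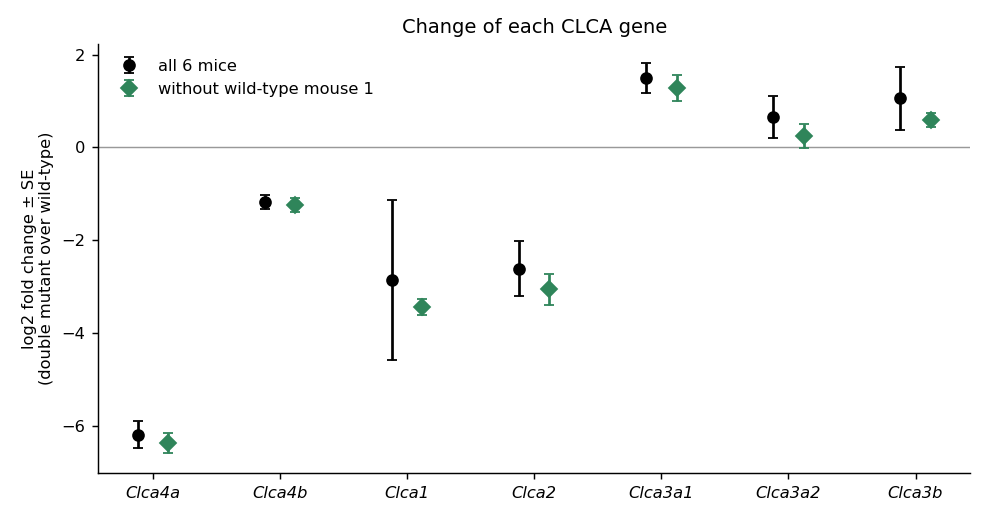
Log2 fold change (double mutant over wild-type) with its standard error for each CLCA gene, from all 6 mice (black circles) and without wild-type mouse 1 (green diamonds). The standard error of *Clca1* falls from 1.72 to 0.18 when that mouse is left out, while *Clca4a* and *Clca4b* move little.

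Per length, the order of the family differed between the groups. In wild-type villi the mean CPM per kb of exon was 895 for *Clca1*, 745 for *Clca4b* and 109 for *Clca4a*, followed by 10.2 for *Clca3b* and less than 1 for *Clca3a1*, *Clca2* and *Clca3a2*. *Clca1* and *Clca4b* overlapped through wild-type mouse 1, *Clca3a1*, *Clca2* and *Clca3a2* overlapped from one to the next, and all other neighbors in the order were apart in every mouse. *Clca1* was at 1340 and *Clca4b* at 779 CPM per kb without wild-type mouse 1, and these no longer overlapped. In double mutant villi *Clca4b* led with 331 CPM per kb, before *Clca1* with 123, *Clca3b* with 21.3, *Clca3a1* with 2.76, *Clca4a* with 1.49, *Clca3a2* with 0.930 and *Clca2* with 0.118, and no neighbors in this order overlapped. *Clca4a* thus stood in the third place in wild-type and in the fifth place in double mutant villi. *Clca1* took 0.837%, 59.3% and 58.1% of the counts of the family in wild-type mice 1, 2 and 3, and 23.2 to 26.5% in the double mutant mice.

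Goblet cell genes were set beside *Clca1* because it is made by these cells. Of 12 goblet cell genes, all of which were tested, 0 were called by edgeR with all mice, 0 had an unadjusted p under 0.05, and DESeq2 called 0 lower. Every one of the 12 was lower in wild-type mouse 1 than in any double mutant mouse. Without wild-type mouse 1, 10 were called lower and 0 higher, against 17.1% and 20.2% of all genes. The median log2 fold change in that fit was -0.83, against 0.03 over all genes. Since that mouse was set apart by the low values of these same genes, these calls are a description. *Muc2*, the main gel-forming mucin, changed by -0.93 in that comparison (edgeR adjusted p = 0.000572). The other strongest calls were *Fcgbp*, a mucus protein (-1.52), *Capn9*, a calpain of mucous cells (-1.73), and *Zg16*, a lectin of mucus (-1.04). *Agr2* and *Spink4* were not called (0.40 and 0.55).

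*Clca1* was also low relative to the goblet cell genes. For each count on the goblet cell list there were 0.153, 0.346 and 0.342 *Clca1* counts in wild-type mice 1, 2 and 3 and 0.0877, 0.0643 and 0.0653 in double mutant mice 1, 2 and 3. Each double mutant mouse was below each wild-type mouse, mouse 1 included. Per *Muc2* count there were 1.64, 3.56 and 3.74 *Clca1* counts in the wild-type mice and 0.894, 0.509 and 0.556 in the double mutant mice, again without overlap. These ratios are a description and were not tested. The log2 fold change of *Clca1* without wild-type mouse 1 (-3.44) lay below those of all 12 goblet cell genes in that fit, which ran from -1.73 to 0.55.

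**Figure D4:**
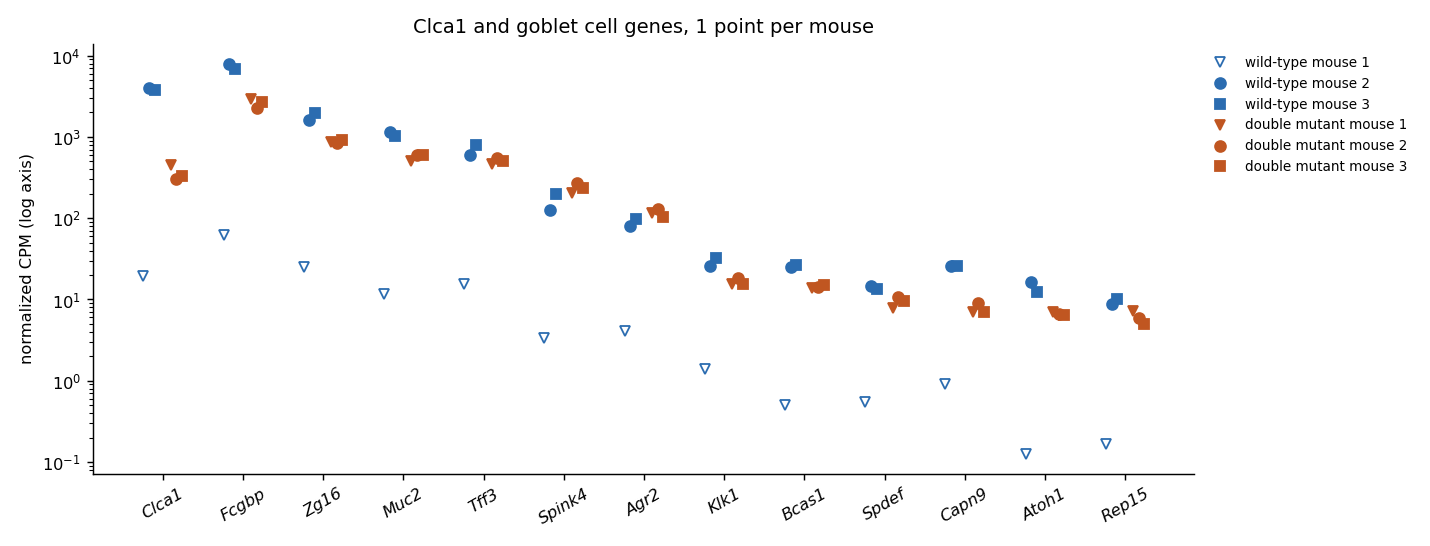
Normalized CPM (log axis) of *Clca1* and the 12 goblet cell genes in each mouse, with wild-type mice in blue, double mutant mice in orange and the open triangle for wild-type mouse 1. Wild-type mouse 1 is lowest for every gene, and the gap between the other wild-type mice and the double mutant mice is widest for *Clca1*.

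*Clca4a* and *Clca4b* were set beside genes of enterocytes and of the villus tip, where mature enterocytes end their life. Of 10 villus tip genes, 9 were called lower and 0 higher, against 17.0% and 19.7% of all genes, with a median log2 fold change of -1.91 against 0.02 over all genes. *Nt5e*, the ectonucleotidase CD73, fell by 6.29 on the log2 scale, *Ada*, adenosine deaminase, fell by 5.29, *Enpp3*, another ectonucleotidase, fell by 3.27 and *Klf4*, a transcription factor of differentiated cells, fell by 2.53. The edgeR adjusted p of *Nt5e* was 7.06e-06. Of 13 enterocyte genes, 9 were called lower and 1 higher, against the same shares, with a median of -0.55. *Slc5a1*, the glucose carrier, fell by 2.01, *Lct*, lactase, fell by 2.04, *Sis*, sucrase-isomaltase, fell by 1.48 and *Vil1*, villin, whose promoter drives the Cre in this model, fell by 0.85, whereas *Fabp1*, a fatty acid binding protein, was higher by 0.82. Without wild-type mouse 1 the counts lower were 9 of 10 and 8 of 13. Both lists were chosen with earlier results of these data known, so these counts are a description.

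Anoctamin and bestrophin genes were set beside the family, since they include channels that conduct chloride in response to calcium, the activity it is named for. Not every listed gene is known for that activity. Of 13 listed anoctamin and bestrophin genes, 10 were in the table and 7 were tested, of which 1 was called lower and 1 higher, with a median log2 fold change of -0.52. Over all genes 17.0% were lower and 19.7% higher, so with 7 genes these counts are near the background. *Ano6*, which moves lipids across the membrane as well as ions, was lower at -1.12 ± 0.22 (SE; edgeR adjusted p = 0.00545) and at -0.87 without wild-type mouse 1. *Ano1*, the channel that CLCA1 acts on, was low in all mice, at 0.750, 2.45 and 1.87 CPM in wild-type mice 1, 2 and 3 and 4.51, 3.48 and 4.08 CPM in double mutant mice 1, 2 and 3. It was higher at 1.26 ± 0.41 (SE; edgeR adjusted p = 0.0421), without overlap of the groups, and at 0.90 without wild-type mouse 1. *Ano7* was not called with all mice (-0.86, edgeR adjusted p = 0.497) but was lower without wild-type mouse 1 (-1.38), and is named here after its values were seen. In that fit 2 of the 7 tested genes were lower and 2 higher.

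Of the 6 other anion transport genes tested, 2 were called lower and 2 higher, with a median of 0.08, where 36.8% of all genes were called in either direction. *Cftr*, the cyclic AMP-regulated chloride channel, was higher at 1.37 ± 0.23 (SE; edgeR adjusted p = 0.00293), with 70.6 to 129 CPM over the wild-type mice and 218 to 305 CPM over the double mutant mice, and at 1.15 without wild-type mouse 1. *Slc26a3*, an exchanger of chloride for bicarbonate, was higher by 0.44. *Slc26a6*, another such exchanger, fell by 0.81, and *Clcn2*, a chloride channel, fell by 0.47. *Slc12a2*, which loads cells with chloride, was at 3.75, 19.9 and 24.8 CPM in wild-type mice 1, 2 and 3 and 61.7 to 80.5 CPM in double mutant mice but did not pass the test with all mice (edgeR adjusted p = 0.0541). Without wild-type mouse 1 it was higher by 1.73 (edgeR adjusted p = 9.1e-05), and 2 genes of this list were lower and 3 higher.

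Other cell types of the villus were followed beside the members. Of 6 genes of intraepithelial lymphocytes tested, 2 were called lower with all mice and 5 without wild-type mouse 1, with 0 higher in both, against 17.0% and 17.1% of all genes lower, and the list took 0.00702 to 0.0137% of the counts in wild-type and 0.00676 to 0.0110% in double mutant mice. Paneth cell genes took 0.0136 to 0.0204% in double mutant mice, and 0 of 5 were called by edgeR with all mice, 0 with an unadjusted p under 0.05, while 1 was called lower and 1 higher without wild-type mouse 1. The 5 mesenchyme genes took at most 0.000446%, the 4 endothelial genes at most 0.000539% and the Brunner gland mucin *Muc6* at most 0.000269% of the counts of any mouse, and of these lists 1, 2 and 1 genes were tested and 0 called, 0 with an unadjusted p under 0.05. The part of cell makeup in the changes of the CLCA genes was not tested.

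Genes on both flanks of the cluster were set beside its members. On the side of *Clca3a1*, *Sh3glb1*, which encodes the membrane-bending protein endophilin B1, and *Hs2st1*, an enzyme of heparan sulfate synthesis, had log2 fold changes of -0.14 and 0.18 that did not pass the test (edgeR adjusted p = 0.294 and 0.438), and *Sep15*, a selenoprotein gene, was higher by 0.47 (edgeR adjusted p = 0.00910). On the side of *Clca2*, *Odf2l*, a gene of the centriole, had a log2 fold change of -0.85 that did not pass the test (edgeR adjusted p = 0.539) and was at 2.25 CPM in wild-type mouse 1 against 38.2 and 35.2 CPM in mice 2 and 3. Without that mouse the log2 fold change of *Odf2l* was -1.40 (edgeR adjusted p = 0.000261). *Znhit6*, a factor for the assembly of small nucleolar ribonucleoproteins that lies farther out, was higher by 2.03 (edgeR adjusted p = 0.0100) at no more than 3.99 CPM, and by 1.67 without wild-type mouse 1.

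**Figure D5:**
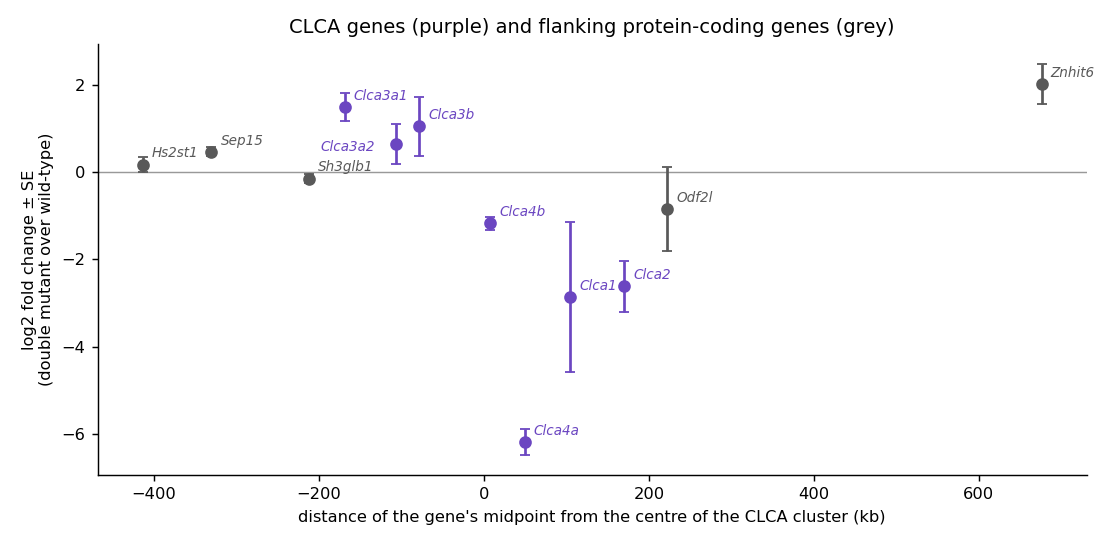
Log2 fold change (double mutant over wild-type, with standard error) of the 7 CLCA genes (purple) and the tested protein-coding genes that flank them (grey), against the distance of each gene from the centre of the cluster in kb. The values run from 1.50 for *Clca3a1* through -6.20 for *Clca4a* to -2.62 for *Clca2*.

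The sequence before the start of 4 CLCA genes, *Clca2*, *Clca3a1*, *Clca3b* and *Clca4b*, was searched in RefSeq (GRCm38.p6) because members of the cluster had log2 fold changes of different sign. *Clca4a* and *Clca1* had no entry in that table. On both strands of the 250 bases before the start, the motif of the intestinal factor CDX (TTTATG) was found in *Clca4b* and *Clca3b*, at -237 and -30, and in 10.8% of all 32851 promoters of that length. The KLF core (GGGTG) was found in *Clca2* and *Clca3a1* and in 52.0% of all promoters. The Smad box (GTCTG), the TCF/LEF core (CTTTGA), the HNF4 core (CAAAGTCC) and the GATA core (AGATAA) had no match in these 4 windows and were found in 42.2%, 13.8%, 1.2% and 10.0% of all promoters. The CDX motif was thus found in *Clca4b*, which was lower in the double mutant, and in *Clca3b*, which was not called with all mice (log2 fold change 1.06). It was not found in *Clca2*, which was lower, or in *Clca3a1*, which was higher. Any link between motifs and these changes was not tested. The window of *Clca4b*, the most abundant of the 4 genes, is printed with that match in capitals (GRCm38.p6, chr3:144932530-144932779, minus strand).
Clca4b: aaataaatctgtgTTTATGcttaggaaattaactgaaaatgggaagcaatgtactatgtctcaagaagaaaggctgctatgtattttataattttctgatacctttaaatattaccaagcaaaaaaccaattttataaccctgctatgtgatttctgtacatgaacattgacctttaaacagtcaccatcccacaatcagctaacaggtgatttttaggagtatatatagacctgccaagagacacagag

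Genes with the most similar pattern were sought for each member among 10748 candidates outside the family, by the root mean square difference of mean-centred log2 CPM over the 6 mice. For *Clca4a* they were 2010109I03Rik, *Nt5e* and *Smad6*, an inhibitory Smad, with differences of 0.369, 0.456 and 0.502. 2010109I03Rik was at 247, 303 and 331 CPM in wild-type mice 1, 2 and 3 and at 4.23, 5.33 and 4.79 CPM in double mutant mice 1, 2 and 3, so both group levels were close to those of *Clca4a*, while the order of the double mutant mice differed. For *Clca4b* they were *Trim25*, a ubiquitin ligase (0.0692), *Il22ra1*, a receptor chain for interleukin-22 (0.0773), and *Rai14* (0.0800), with log2 fold changes of -1.22, -1.13 and -1.22. For *Clca1* they were *Fer1l6* (0.468), *Itln1* (0.543) and *Ido1* (0.617), which were at 0.375, 2.37 and 0.667 CPM in wild-type mouse 1, the lowest of the 6 mice for each. *Itln1* encodes a lectin that binds microbial sugars and *Ido1* an enzyme that breaks down tryptophan. The 6 points come from 2 groups of 3 mice.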

How the data were processed

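Poly(A)-enriched RNA of villus epithelium from 6 mice was sequenced by the authors as paired reads of 150 bases, aligned to mm9 with HISAT2 and counted per gene with featureCounts, and the raw counts were deposited without normalization, 1 column per mouse. Strand and multiple-match settings are not given in the sources used here. Of 20073 Ensembl identifiers, 20032 were found in the mm9 annotation (GENCODE vM1), and CLCA names were updated through RefSeq synonyms. The labels state 0.5 mM EDTA in steps of 10 min for isolation of the epithelium, and the methods state 5 mM for 20 min.

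Genes were kept by filterByExpr (13346 of 20409 features), scaled by TMM and tested with edgeR 4.0.16 (R 4.3.3; glmQLFit robust, glmQLFTest), p-values being adjusted by Benjamini-Hochberg across the tested genes with a threshold of 0.05. CPM are TMM-normalized, and standard errors are the size of the log2 fold change over the root of the quasi-likelihood F. P-values rest on the spread between the 3 mice of each group, with each gene's variance moderated toward a trend over all genes. Fits without wild-type mouse 1 rest on 2 wild-type mice. The test was checked on simulated counts. Alternatives were DESeq2 1.42.0, RLE factors, library size alone, 2 other filters, sex as a covariate, a replicate block, a fold threshold and fits without each mouse. Named genes were all CLCA genes, the 3 genes nearest to each member in pattern (mean log2 CPM of at least 1) and tested protein-coding neighbors within 500 kb. From the goblet, villus tip, enterocyte, anoctamin and bestrophin, and anion transport lists the smallest adjusted p-values were named, up to 4 in each direction. *Ano1*, *Muc2*, *Cftr* and cell type markers were named as well. The lymphocyte and Paneth cell lists are given as counts and shares alone. The members and lists were chosen with earlier results of these data known. *Ano2*, *Ano4*, *Ano5*, *Trdc*, *Dcn*, *Cdh5* and *Tff2* were not analysed here.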

Additional observations from a re-analysis of the deposited data

How the results depend on the processing

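No CLCA gene changed direction under any alternative that gave it a value. The adjusted p of *Clca4b* and *Clca3a1* stayed under 0.05 in each such fit. That of *Clca2* did so where it was tested, which is a description, since the gene passed the main filter through the wild-type group alone. *Clca2* was not tested with a filter of at least 50 counts in 3 mice. In fits that each left out 1 mouse, the log2 fold change ran from -6.48 to -6.06 for *Clca4a*, from -1.27 to -1.05 for *Clca4b* and from -3.44 to -2.41 for *Clca1*, which passed the test only without wild-type mouse 1, as did *Clca3b* (0.58). Over the same fits the numbers called lower ran from 0 to 10 for goblet cell genes (10 only without wild-type mouse 1). They ran from 1 to 2 for anoctamin and bestrophin genes and from 1 to 2 for other anion transport. For villus tip genes they ran from 8 to 9 and for enterocyte genes from 6 to 8. For anoctamin and bestrophin genes, *Ano7* made the count 2 without wild-type mouse 1, and the count was also 2 without double mutant mouse 1. For other anion transport the count was 1 without wild-type mouse 2, wild-type mouse 3 or double mutant mouse 2. A log2 fold change beyond 2 in addition to the adjusted p left *Clca2* and left out *Clca4b* and *Clca3a1*, which makes 2 CLCA genes when *Clca4a*, whose fall chose the set, is counted without a test. It left 0 anoctamin and bestrophin genes, 0 other anion transport genes, 5 villus tip genes and 2 enterocyte genes, since it asks for more. With RLE factors or sex as a covariate, 2 anoctamin and bestrophin genes were lower, and with library size alone 1 other anion transport gene was. The cause was not tested. Deviations of same-numbered mice from their group means correlated at 0.022, -0.109 and 0.012. Such correlations cannot exclude a pairing by litter or age. The sources used here do not state whether the numbers pair the mice. With the replicate number as a block, 3834 genes were called in place of 4905, and the log2 fold changes of *Clca4a*, *Clca4b* and *Clca1* were -6.20, -1.18 and -2.08 (edgeR adjusted p of *Clca1* 0.687). The depth limits *Clca2*, with 9 to 77 counts per mouse.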
